A study of Mus musculus with 8 samples.

Results

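Ly6C-high monocytes (MCs) of the db/db mouse, the type 2 diabetes model (T2DM), were set against Ly6C-high MCs of the streptozotocin (STZ) mouse, the type 1 diabetes model (T1DM), as the T2DM minus the T1DM log2 expression value of each of 16486 genes. The comparison uses 2 of the 8 bulk RNA-Seq libraries of the series, 1 on each side, and both were run on a Hiseq 4000. The T1DM group were male C57/BL6 mice that received STZ, a toxin of the insulin-producing beta cells, from the age of 8 weeks (50 mg/kg daily, 5 days). The T2DM group were male db/db mice, which carry a mutated leptin receptor and become obese and diabetic. Mice were studied at 20 to 22 weeks of age, and blood MCs were sorted as CD11b+Ly6G-Ly6C-high cells. RNA of 5 mice per group was pooled, so a library is a pool and no spread between mice can be given. The strain background of the db/db mice is not given in the sources used here, so strain and diabetes model cannot be told apart. The control (CT) C57/BL6 mice gave 2 Ly6C-high libraries from pooled RNA on a NextSeq 500, and each mouse group also gave Ly6C-low libraries (2 CT, 1 T1DM, 1 T2DM). A CT value beside a diabetic value is therefore a value from another sequencer.

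Ly6C-high MCs are the classical, inflammatory monocytes of mouse blood. They leave the bone marrow through the chemokine receptor CCR2, enter inflamed tissue and can become macrophages or dendritic-like cells there. Type I interferon acts on them through the receptor IFNAR, the kinases JAK1 and TYK2 and a factor complex with STAT2 and IRF9, which binds the interferon-stimulated response element (ISRE) in front of antiviral genes.

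The deposited values are on the log2 scale, so a difference of 1 (log2FC) is 2-fold. The study names both gene counts and length-normalized levels, and which of them lies behind the values is not given. Levels of different genes may therefore not be comparable. With 1 library a side there was no test and no replicate check, and the only measure of precision was the difference between the 2 CT Ly6C-high libraries, which may be 1 pool sequenced in duplicate and need not hold the difference between mice. The study describes 2 libraries for each group, and a further library of T1DM or T2DM was not analysed here. T2DM Ly6C-high MCs were past 2-fold higher than T1DM for 1395 genes (8.46% of all) and past 2-fold lower for 1780 (10.8%), while 2279 genes (13.8%) were past 2-fold in either direction between the CT replicates. The excess over the CT replicates lay in genes with a mean of 1 or more. With a mean from 1 to 5, 18.7% of 6841 genes were past 2-fold between T1DM and T2DM, against 8.67% of 6804 between the CT replicates. Of 5348 genes that averaged 5 or more on the log2 scale in the 2 diabetic libraries, 119 (2.23%) were higher and 180 (3.37%) lower in T2DM, against 12 of 5302 (0.226%) in either direction between the CT replicates. The SD of the difference over the 5348 genes was 0.56, and that of the CT replicates over the same genes was 0.26. Below a mean of 1, 37.2% of 4297 genes were past 2-fold between T1DM and T2DM and 38.3% of 4380 between the CT replicates, so a low gene by itself carries little here. The well expressed genes are therefore read first below, and low genes mostly as members of a list.

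**Figure D1:**
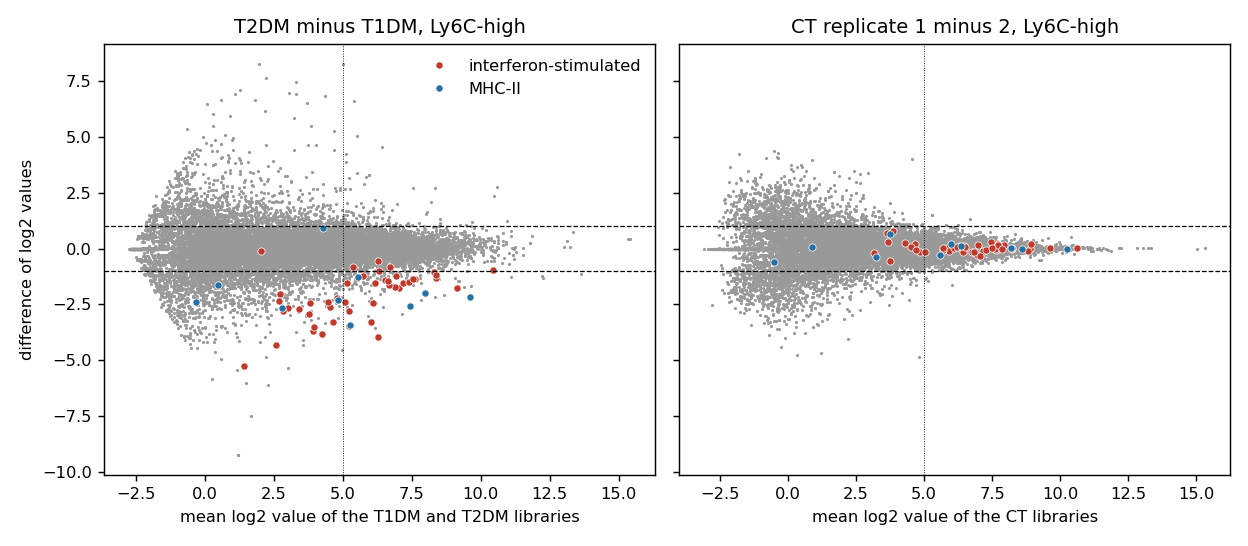
Difference of log2 values (y) against mean log2 value (x) for each of 16486 genes, T2DM minus T1DM Ly6C-high MCs on the left and CT replicate 1 minus 2 on the right. Dashed lines mark 2-fold and the dotted line a mean of 5. The interferon-stimulated genes (red) lie below 0 on the left and around 0 on the right, and 9 of the 10 MHC-II genes (blue) lie below -1 on the left.

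The sorted cells carried the markers of their gate in both diabetic libraries. Ly6c2, which encodes the sorted antigen, had a log2 value of 8.72 (T1DM) and 8.58 (T2DM), against 3.20 and 3.53 in the Ly6C-low libraries. Itgam, the CD11b chain, was at 10.66 and 10.98, and Csf1r, the receptor for the monocyte growth factor, at 10.64 and 10.09. Of 12 MC identity genes with a value, 0 were past 2-fold, and their differences ran from -0.55 to 0.80. Ly6g had no value here. In bulk RNA, fewer cells of a type and less RNA per cell cannot be told apart, which holds for every difference below.

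The antiviral interferon programme was lower in T2DM. All 45 interferon-stimulated genes of the list had a lower value in T2DM than in T1DM Ly6C-high MCs, 39 of them past 2-fold (10.8% of all genes were), with a median log2FC of -1.78 (median of all genes, 0.00). In all 45 the T2DM library was also the lowest of the 4 Ly6C-high libraries. The ISRE that this programme is read through is shown here in 4 members, chosen among those with a match to run from the low gene Isg15 to the abundant Slfn5. Each line gives 180 bases just before the RefSeq start of the gene (GRCm38.p6), written 5′ to 3′ on the gene's strand, with matches to the element (GAAA, any 2 bases, GAAA) on either strand in capitals.
Ifit3, chr19:34583349-34583528, plus strand: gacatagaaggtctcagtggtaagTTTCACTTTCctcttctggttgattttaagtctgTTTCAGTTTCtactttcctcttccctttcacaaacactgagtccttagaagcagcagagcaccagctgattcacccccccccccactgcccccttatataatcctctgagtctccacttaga
Isg15, chr4:156200819-156200998, minus strand: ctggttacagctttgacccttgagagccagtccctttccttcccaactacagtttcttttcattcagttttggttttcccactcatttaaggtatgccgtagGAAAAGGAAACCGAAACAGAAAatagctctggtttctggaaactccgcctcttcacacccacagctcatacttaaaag
Oas3, chr5:120777660-120777839, minus strand: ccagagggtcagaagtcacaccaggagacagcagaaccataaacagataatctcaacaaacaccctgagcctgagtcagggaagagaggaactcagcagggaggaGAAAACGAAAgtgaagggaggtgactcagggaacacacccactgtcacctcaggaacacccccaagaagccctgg
Slfn5, chr11:82951922-82952101, plus strand: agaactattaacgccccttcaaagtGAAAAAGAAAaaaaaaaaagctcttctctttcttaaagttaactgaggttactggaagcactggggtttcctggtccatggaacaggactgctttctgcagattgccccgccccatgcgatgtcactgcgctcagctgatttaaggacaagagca
In Isg15 3 overlapping matches form the capital run, and in Ifit3 the 2 matches lie on the other strand and so read TTTC, 2 bases, TTTC. These letters were looked for in 250 bases before to 50 after the start, where RefSeq entries were at hand for 34 of the 45 genes, and 22 of the 34 (64.7%) held a match, against 3.99% of 27025 genes with an entry. Across the well expressed genes, 25 of 132 past 2-fold lower in T2DM held the match (18.9%), as did 3 of 87 past 2-fold higher (3.45%) and 169 of 4035 within 2-fold (4.19%). Without members of the interferon lists, 12 of 112 lower genes (10.7%) held it. A match describes the sequence and does not show a bound site.

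The 2′-5′-oligoadenylate synthetases, which make the activator of the antiviral nuclease RNase L, were among the genes with the largest differences. Oasl2 (chr5:114896936-114912234, GRCm38) had the largest negative difference of all genes averaging 5 or more. Its log2 value was 8.03 and 7.87 in the CT Ly6C-high libraries, 8.27 in T1DM and 4.32 in T2DM, a log2FC of -3.96 (15.5-fold lower). T1DM thus sat slightly above the CT pair and T2DM far below it. Oas2 was at 6.97 in T1DM and 3.52 in T2DM (log2FC -3.45), and Oas3 at 7.68 and 4.41 (-3.27), with CT values from 7.58 to 7.61 for Oas3. Oas1a had a log2FC of -3.31, but it shares 68.8% of its 31-base sequences with other genes, mainly Oas1g, so part of their reads cannot be told apart.

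The Ifit genes, whose proteins bind viral RNA, also had their lowest Ly6C-high value in T2DM. Ifit3 (chr19:34583531-34588731) was at 5.64 and 5.72 in the CT pair, 6.16 in T1DM and 2.36 in T2DM (log2FC -3.80). Ifit1 went from 5.28 in T1DM to 2.33 in T2DM and Ifit2 from 5.87 to 3.25. Ifit3b had the lowest difference of the list (-5.28), but it shares 55.3% of its 31-base sequences, mainly with Ifit3, and its T2DM value of -1.20 lies where replicates spread widely. The myxovirus GTPase Mx1 was at 6.86 and 7.22 in the CT pair, 7.33 in T1DM and 4.88 in T2DM. Isg15, the ubiquitin-like modifier, was at 4.23 in T1DM and 1.45 in T2DM, and Usp18, which removes it and restrains the receptor, at 4.78 and 2.08.

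Among the more abundant members, Slfn5, a member of the Schlafen family, was at 10.05 in T1DM and 8.26 in T2DM (log2FC -1.78), with 9.66 and 9.62 in CT. Ifi204, a member of the DNA-sensing p200 family, had a log2FC of -1.33 and its neighbour Ifi203 one of -2.17. Stat2 (-1.65) and Irf7 (-1.53), which carry the signal and amplify it, were past 2-fold, and Irf9 (-0.82) was not. Members within 2-fold were Xaf1, Ifitm3, Dhx58, Irf9, Ddx58 and Ifi44, the last nearest to 0 at -0.09. The difference of 44 of the 45 genes was larger than their own difference between CT replicates, whose largest value in the list was 0.77.

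The receptors and kinases upstream of these genes lay within 2-fold between the libraries. Of 9 genes for interferon receptors, JAK kinases and their inhibitors, 0 were past 2-fold, with differences from -0.23 to 0.90 and a median of 0.06. Ifnar1 was at 7.38 in T1DM and 7.57 in T2DM, Ifnar2 at 7.83 and 7.88, Jak1 at 8.69 and 8.65, and Tyk2 at 6.95 and 6.72. Among 9 interferon regulatory factors, Irf7 and Irf4 (7.97 to 6.65) were past 2-fold lower, while Irf8, the fate factor of monocytes, was at 7.67 and 7.76. The interferon-inducible GTPases, which answer mostly to interferon gamma, were lower past 2-fold in 9 of 17 and higher in 1, with a median of -1.16. Of all genes 10.8% were past 2-fold lower and 8.46% higher. Ifi47 was at 7.38 in T1DM and 5.36 in T2DM, Irgm1 at 6.55 and 4.97, and Gbp3 at 6.61 and 4.76.

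In the Ly6C-low libraries, which take no part in this comparison, the 45 interferon-stimulated genes had a median log2FC of -0.59. There, 38 were lower in T2DM, 12 of them past 2-fold (7.97% of all genes were past 2-fold lower there). The list median per library was 6.68 and 6.82 in the CT pair, 6.62 (T1DM) and 4.41 (T2DM) in the Ly6C-high libraries, and 4.74, 4.57, 4.90 and 4.08 in the Ly6C-low libraries in the same order. By this median T2DM Ly6C-high lay within the range of the Ly6C-low libraries, but its summed level (11.69 on the log2 scale) was above theirs (10.95 to 11.43), and Slfn5 was at 8.26 against 6.04 to 6.92 there. Oas2 had nearly the same value in T1DM and T2DM Ly6C-low MCs (3.41 and 3.40). The GTPases had a median of -1.35 in Ly6C-low MCs, on the same side as in Ly6C-high. The difference between subsets was not tested.

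**Figure D2:**
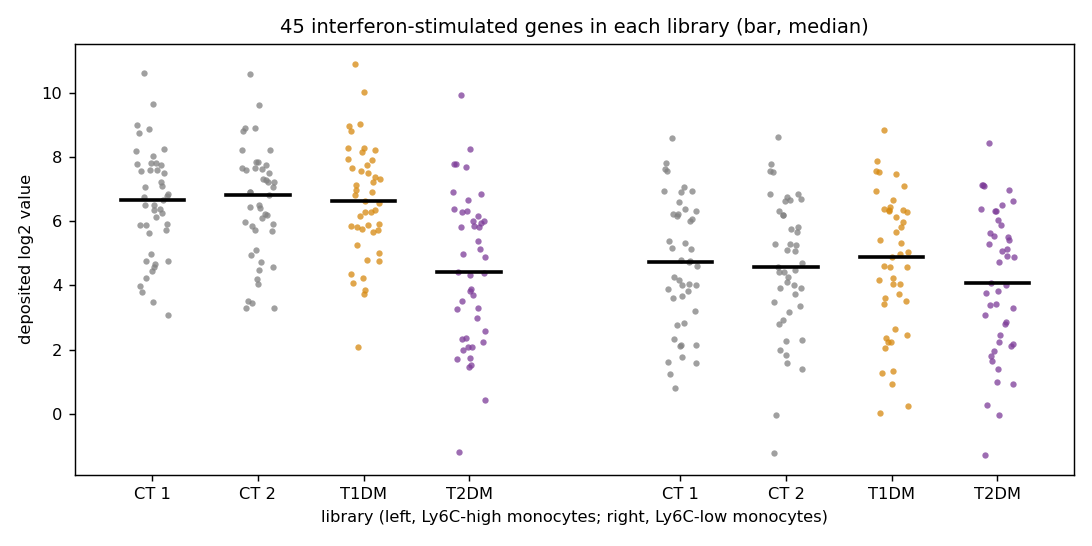
Deposited log2 values (y) of 45 interferon-stimulated genes in the 8 libraries (x), 1 point per gene and a bar at the median. The medians of the CT and T1DM Ly6C-high libraries lie between 6.62 and 6.82 and that of T2DM at 4.41.

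Antigen presentation by MHC-II was the next group. MHC-II molecules show peptides of engulfed proteins to CD4+ T cells, and CIITA switches their genes on. Of the 10 MHC-II genes named by the study, 9 were past 2-fold lower in T2DM Ly6C-high MCs (10.8% of all genes were). The other 1 was higher within 2-fold, and the median log2FC was -2.23. Only 8 of the 10 averaged 1 or more, so the count includes low genes. The 5 that averaged 5 or more were all past 2-fold lower. The list was chosen by the study on these samples and is no independent evidence of its direction. Cd74, the invariant chain and the most abundant member, was at 10.24 and 10.26 in the CT pair, 10.69 in T1DM and 8.52 in T2DM (log2FC -2.17). H2-Ab1 was at 8.21 and 8.19 in the CT pair, 8.75 in T1DM and 6.16 in T2DM, and H2-Eb1 at 6.42 and 6.29 in the CT pair, 6.99 in T1DM and 3.56 in T2DM (10.8-fold lower than T1DM). In each of these, T1DM lay above the CT pair and T2DM below it. H2-Aa had a log2FC of -1.98 and Ciita, their activator, -1.29. The peptide-loading chain H2-DMb1 had one of -2.29, while its near copy H2-DMb2 went from 3.84 in T1DM to 4.78 in T2DM. Of the 31-base sequences of H2-DMb1, 31.4% also occur in H2-DMb2, so reads may be split between them.

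In Ly6C-low MCs the median of these 10 genes was 0.02, with 5 of 10 lower in T2DM and 2 of those, H2-Ob and H2-Oa, past 2-fold. Of all genes, 7.97% were past 2-fold lower in Ly6C-low MCs. Cd74 was at 12.14 in T1DM and 12.36 in T2DM Ly6C-low MCs, H2-Aa at 10.79 and 11.13, and Ciita at 6.83 and 7.10. Among the 5238 genes averaging 5 or more in the 4 diabetic libraries, H2-Eb1 and H2-DMb1 were in the 10 with the most negative Ly6C-high minus Ly6C-low difference, at -2.80 and -2.87.

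**Figure D3:**
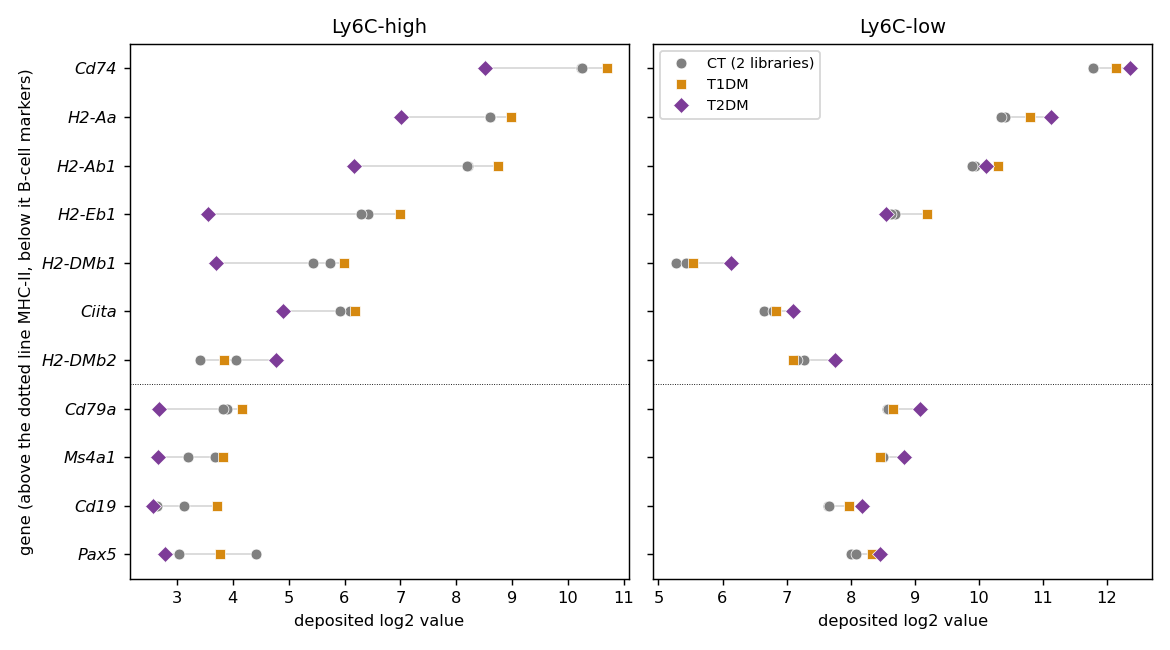
Deposited log2 values (x) of 7 MHC-II genes and 4 B-cell markers (y) in Ly6C-high (left) and Ly6C-low MCs (right), with the CT, T1DM and T2DM libraries as circles, squares and diamonds. In Ly6C-high MCs the T2DM diamond is the lowest for the 6 MHC-II genes from Cd74 to Ciita, and in Ly6C-low MCs it is the highest for 5 of the 7 MHC-II genes and for the 4 B-cell markers.

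B cells are rich in MHC-II, and their markers were lower alongside. Of 20 B-cell markers, 9 were past 2-fold lower in T2DM Ly6C-high MCs and 0 higher (10.8% and 8.46% of all genes were). Their median was -0.96, and 17 had their lowest Ly6C-high value in T2DM. Cd79a, of the B-cell receptor, was at 3.90 and 3.83 in the CT pair, 4.17 in T1DM and 2.68 in T2DM, Ms4a1 (CD20) at 3.82 in T1DM and 2.67 in T2DM, and Pax5, the B-cell identity factor, at 3.77 and 2.80. The most abundant marker was Ighm, at 8.57 and 7.63. The summed level of the 20 markers was 9.87 in T1DM and 9.18 in T2DM on the log2 scale, while that of the 10 MHC-II genes was 11.50 and 9.35. The part of B cells in the MHC-II difference was not tested.

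Dendritic-cell markers past 2-fold were all lower, while macrophage markers went past 2-fold both ways. Of 14 macrophage markers 2 were past 2-fold higher and 2 lower (8.46% and 10.8% of all genes were), with a median of 0.44 and 11 above 0. Of 9 dendritic-cell markers 4 were past 2-fold lower and 0 higher, with a median of -0.52 and 4 above 0, among the lower ones Clec9a of conventional dendritic cells (log2FC -2.47). Cd209a, a lectin of monocyte-derived dendritic cells, was at 5.14 and 5.43 in the CT pair, 6.04 in T1DM and 2.69 in T2DM (log2FC -3.35), and at 6.48 and 6.67 in the T1DM and T2DM Ly6C-low libraries. It had the most negative Ly6C-high minus Ly6C-low difference of the 5238 genes averaging 5 or more in the 4 diabetic libraries (-3.54). Mrc1, the mannose receptor, was at 5.64 in T1DM and 3.34 in T2DM, Axl, a receptor that clears dying cells, at 5.18 and 2.16, and Siglec1, a sialic acid receptor that interferon induces, at 6.14 and 3.57. Sdc3, a cell-surface heparan sulfate proteoglycan, went from 7.01 and 7.00 in the CT pair and 7.26 in T1DM to 2.70 in T2DM (23.5-fold lower than T1DM). The most abundant dendritic-cell marker in T2DM was Flt3, at 5.76, and the most abundant macrophage marker was Adgre1, an adhesion receptor, at 7.56 in T1DM and 8.01 in T2DM.

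MHC-I presentation, which shows peptides from inside the cell to CD8+ T cells, was lower to a smaller extent. Of 24 genes 5 were past 2-fold lower and 2 higher (10.8% and 8.46% of all genes were), with a median of -0.45, and 19 were below 0. Nlrc5, the activator of the MHC-I genes, was at 6.93 in T1DM and 5.00 in T2DM, the peptide transporter Tap1 at 6.94 and 5.37, and H2-K1 at 9.72 and 8.41. B2m, the shared light chain, was at 11.37 and 10.68, within 2-fold. H2-K1 had a log2FC of -1.46 in Ly6C-low MCs too, and H2-Q6, a nonclassical gene that shares 51.8% of its 31-base sequences with others, had log2FC of 1.09 (Ly6C-high) and -1.38 (Ly6C-low).

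Several of the genes that differed in both subsets lay near each other in and beside the MHC on chromosome 17. Between 30 and 37 Mb of that chromosome (GRCm38, bounds set after the values were seen), 5 of 68 well expressed genes (7.35%) were past 2-fold the same way in both subsets. In Ly6C-high MCs alone 13 of the 68 (19.1%) were past 2-fold, MHC-II genes above included, against 299 of 5348 (5.59%) in all. On the whole chromosome 12 of 260 genes (4.62%) were past 2-fold the same way in both subsets, against 85 of 5302 (1.60%) over all chromosomes. Glo1 (chr17:30584936-30626871), which detoxifies methylglyoxal, a by-product of glycolysis, was at 5.38 (T1DM) and 7.40 (T2DM) in the Ly6C-high libraries and at 5.14 and 6.88 in Ly6C-low MCs. Rps18 (chr17:33951999-33956001), of the small ribosomal subunit, was at 8.61 and 5.69 in Ly6C-high and 8.09 and 5.35 in Ly6C-low MCs. H2-K2, beside H2-K1, was at 3.59 and 6.22, and H2-Ea-ps at 0.92 and 4.41 in Ly6C-high and at 0.75 and 8.71 in Ly6C-low MCs. These loci vary between mouse strains, and the strain of the db/db mice is not given.

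Lcn2, Vcan, Mmp8 and Chil3 were among the 20 well expressed genes with the largest positive differences, a group that also held pseudogenes and gene copies described further on. Lcn2 (chr2:32384633-32388252), lipocalin 2, which withholds iron from bacteria, was at 3.17 and 1.90 in the CT pair, 2.12 in T1DM and 8.71 in T2DM, a log2FC of 6.60 (96.7-fold). Its T2DM value stood well above the other Ly6C-high libraries, although its low CT values differed by more than 2-fold from each other. Lcn2 averaged 5 or more only through its T2DM value, because it was below 5 in T1DM. The same held for Emp1, Saa3, Colec12, Fpr2, C5ar1, Ccr1, Tpm3-rs7, Rps2-ps10, Gm13370, Gm10240 and Gm13394 below. Genes below 5 in T2DM, such as Oasl2 and H2-Eb1 above, likewise averaged 5 or more only through T1DM. For such genes the filter and the rank depend in part on the difference itself. Vcan, the matrix proteoglycan versican, was at 9.49 and 9.53 in the CT pair, 9.23 in T1DM and 11.97 in T2DM (log2FC 2.74, 6.70-fold) and at 3.34 and 4.23 in the diabetic Ly6C-low MCs. Mmp8, a collagenase of granules, was at 7.28 and 7.15 in the CT pair, 6.99 in T1DM and 9.70 in T2DM. Chil3, a chitinase-like protein, was at 10.37 and 10.39 in the CT pair, 9.32 in T1DM and 11.67 in T2DM, and 41.5% of its 31-base sequences occur in other genes too. T1DM was below the CT pair for each of these but Lcn2, and T2DM above it.

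Of 20 classical-monocyte genes, 7 were past 2-fold higher in T2DM and 1 lower (8.46% and 10.8% of all genes were). Their median was 0.56, and in 16 T2DM had the highest of the 4 Ly6C-high values. F13a1, coagulation factor XIII A, was higher by 1.25 and Hp, haptoglobin, by 1.31. The calprotectin chains were low in CT and higher in T2DM, with S100a8 at 1.14 and 1.15 in the CT pair, 2.49 in T1DM and 6.90 in T2DM, and S100a9 at 0.62 and 1.23, 3.55 and 5.52. Ccr2 was higher by 0.54, within 2-fold, and Plac8 had a log2FC of -1.54. Of 21 nonclassical-monocyte genes, 4 were past 2-fold lower, namely Ace (8.39 to 6.75), Itgax, Cd9 and Spn, and 0 were higher (median -0.32). Nr4a1, the factor that nonclassical monocytes depend on, was at 7.34 and 7.03.

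The list of neutrophil-type granule genes shares Mmp8, Chil3, Hp and Cd177 with the classical-monocyte list. Of its 16 genes with a value, 8 were past 2-fold higher and 3 lower (8.46% and 10.8% of all genes were), with a median of 1.16. Higher were also the early granule genes Mpo (0.74 to 3.83), Prtn3 (1.28 to 4.54) and Fcnb (0.72 to 3.61), all low. Lower were Retnlg (3.87 to -1.55), Padi4 (log2FC -4.08) and Ltf (2.71 to 0.42), the first a marker of mature neutrophils. In the overlapping list of 14 neutrophil markers 5 were higher and 4 lower. Its summed level went from 9.53 to 11.09, its most abundant gene was Csf3r in T1DM and Mmp8 in T2DM, and Cxcr2, which mature neutrophils carry, was at 2.95 and 2.79. In T2DM Ly6C-low MCs 11 of the 16 granule genes were past 2-fold higher (7.29% of all genes were). S100a9 was at 0.04 in T1DM against 4.68 in T2DM Ly6C-low MCs. Ly6g, Camp, Elane and Ctsg had no value here, and the part of neutrophils or their precursors was not tested.

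Several receptors that guide MCs toward bacterial peptides, complement fragments and chemokines were higher in T2DM. Fpr2, a formyl peptide receptor, was at 5.41 and 4.93 in the CT pair, 4.25 in T1DM and 7.44 in T2DM (log2FC 3.19), and shares 43.0% of its 31-base sequences with other genes. C5ar1, the receptor of the complement fragment C5a, was at 5.48 and 5.32 in the CT pair, 4.35 in T1DM and 7.22 in T2DM (log2FC 2.87). C5ar2, the second C5a receptor, was at 2.97 and 2.72 in CT, at the low end of the scale in T1DM (-2.26) and at 4.82 in T2DM. For Fpr2 and C5ar1 the T1DM value lay below and the T2DM value above both CT libraries.

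The share of all genes past 2-fold, against which the counts of this paragraph stand, was 8.46% higher and 10.8% lower. Of 14 chemokine receptors 2 were past 2-fold higher and 3 lower, with a median of -0.11. Ccr1 was at 4.01 and 3.92 in the CT pair, 3.65 in T1DM and 6.81 in T2DM, and at 2.59 and 4.05 in the diabetic Ly6C-low libraries. The 3 lower receptors, Ccr7, Ccr3 and Cxcr5, were below 3.5 in both libraries and guide mostly dendritic cells, eosinophils and B cells. Among the scavenger and lectin receptors, 8 of 33 were higher and 8 lower past 2-fold. The higher ones included Clec4e, the receptor Mincle for mycobacterial lipid (5.50 to 7.27), Msr1, a scavenger receptor of modified lipoproteins (8.00 to 9.02), and Siglece (5.24 to 6.93), and the lower ones were Cd209a, Mrc1, Axl and Siglec1 above with Clec9a, Clec10a, Clec4b1 and Cd163. Of 17 complement genes 7 were higher and 2 lower (median 0.85).

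Other genes averaging 5 or more that were higher include Emp1, an epithelial membrane protein (4.18 and 4.48 in CT, 3.03 in T1DM, 8.05 in T2DM, log2FC 5.02), and Saa3, an acute-phase serum amyloid A (4.34 and 4.41, 3.22, 7.07). Both were below 5 in the CT and T1DM Ly6C-high libraries. Saa3 was lower in T2DM than in T1DM Ly6C-low MCs (4.21 and 2.82). Colec12, a scavenger receptor with a collagen stem, was higher by 3.39, and Pla2g7, which cleaves platelet-activating factor, by 2.07. Itpr3, a calcium channel of the endoplasmic reticulum, went from 2.86 in T1DM to 5.75 in T2DM and had the largest positive Ly6C-high minus Ly6C-low difference (3.31) of the 5238 genes averaging 5 or more in the 4 diabetic libraries, with Ly6C-low values of 6.61 and 6.18. The receptor gene Cd33 was higher by 1.61, but its CT values of 7.36 and 6.01 lay far apart.

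Genes of cholesterol synthesis, which the factor SREBP2 turns on when cell cholesterol is low, were lower in part. Of 23 genes 11 were past 2-fold lower and 0 higher in T2DM Ly6C-high MCs (10.8% and 8.46% of all genes were), with a median of -0.86, and 19 were below 0. Only 4 of the 23 averaged 5 or more, 3 of them past 2-fold lower, and CT replicates of members differed by up to 1.57. Idi1, which isomerizes the isoprenoid building block, was at 4.49 in T1DM and 2.25 in T2DM (log2FC -2.24). Cyp51, the lanosterol demethylase, was at 5.58 in T1DM and 3.85 in T2DM, Sqle, squalene epoxidase, at 4.54 in T1DM and 2.59 in T2DM, and Srebf2, which encodes SREBP2, at 6.91 and 5.59. Insig1, which holds SREBP2 back, was at 5.77 and 4.45, and Hmgcs1, an early enzyme of the pathway, had a log2FC of -0.53. In Ly6C-low MCs the list median was -0.40, with 4 genes lower past 2-fold (7.97% of all genes were). The sterol element letters TCACNCCAC on either strand occurred in 1 of 15 promoters at hand for the list (Hmgcs1, 6.67%), against 1.44% of all.

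Lipid mediator genes differed in both directions. Hpgd (chr8:56294585-56321043), which inactivates prostaglandins, was at 7.01 and 6.88 in the CT pair, 7.96 in T1DM and 4.42 in T2DM (11.6-fold lower than T1DM), and at 7.59 and 4.51 in Ly6C-low MCs. Alox12, a lipoxygenase abundant in platelets, was at 7.41 and 5.57. Of 20 eicosanoid genes 4 were higher and 4 lower past 2-fold (8.46% and 10.8% of all genes were), with a median of 0.52.

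Platelet and NK-cell markers were lower in T2DM in both subsets, and red-cell markers in the main. In Ly6C-high MCs 10.8% of all genes were past 2-fold lower and 8.46% higher. Of 16 platelet markers 13 were past 2-fold lower and all 16 below 0 (median -1.55 in Ly6C-high, -1.39 in Ly6C-low MCs). T1DM had the highest of the 4 Ly6C-high values in 16 of 16, and T2DM the lowest in 14. Ppbp, a platelet chemokine and the most abundant of them, was at 8.27 and 8.03 in the CT pair, 8.98 in T1DM and 6.68 in T2DM, Itgb3 at 7.32 and 5.50 in the diabetic libraries and Pf4 at 6.23 and 5.25. The summed platelet level was 9.72 and 9.66 in the CT pair, 10.31 in T1DM and 8.62 in T2DM. Of 12 red-cell markers 5 were past 2-fold lower and 2 above 0 (median -0.92), with Hbb-bs at 14.20 and 13.07. Their summed level was 14.37 and 14.35 in the CT pair, 15.24 in T1DM and 14.05 in T2DM, so T1DM stood farther from the CT pair than T2DM. Of 16 NK-cell markers 15 were past 2-fold lower and 0 higher (median -2.27, and -2.82 in Ly6C-low). They were low in the Ly6C-high MCs, with Gzma, the most abundant, at 5.35 and 3.36, Ncr1 at 3.47 and 1.64 and a summed level of 7.67 and 5.67. Of 20 T-cell markers 5 were lower and 3 higher, with summed levels of 6.08 and 5.77. Integrins shared with platelets, Itgb3 and Itga6, were among the 7 of 23 adhesion genes past 2-fold lower. The part of these cells in the differences of Hpgd, Alox12 and the adhesion genes was not tested.

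**Figure D4:**
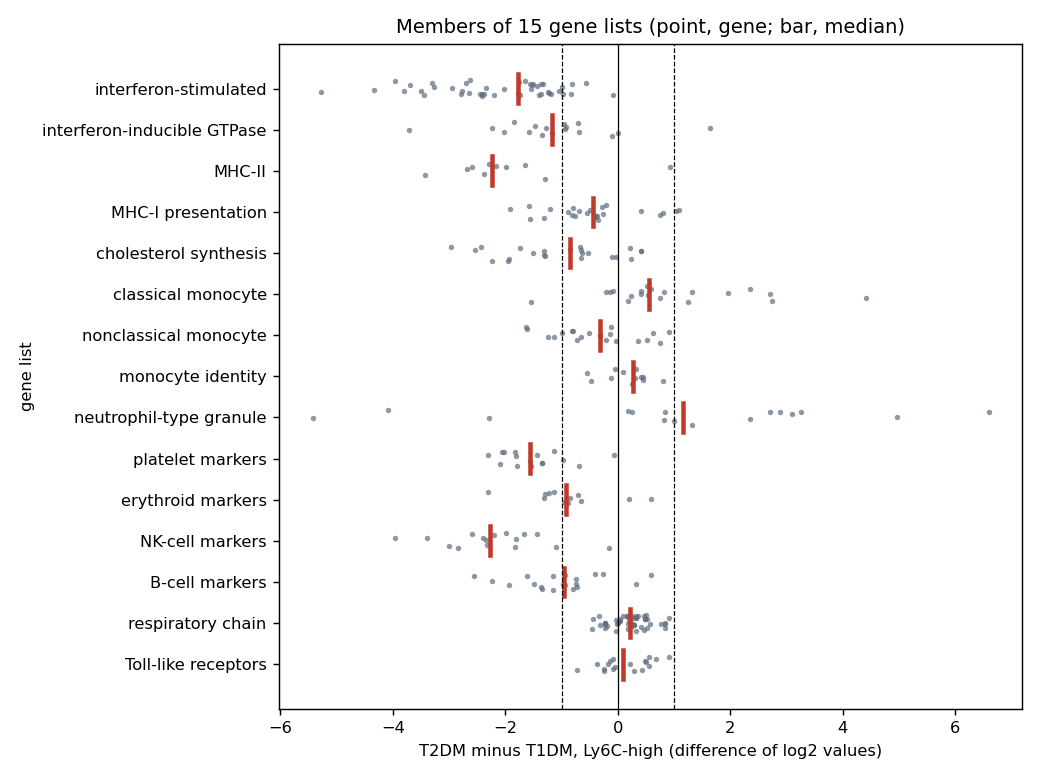
T2DM minus T1DM log2 difference in Ly6C-high MCs (x) of the members of 15 gene lists (y), 1 point per gene and a red bar at the median, with dashed lines at 2-fold. Medians run from -2.27 for NK-cell markers and -2.23 for MHC-II to 1.16 for neutrophil-type granule genes, and the respiratory chain and Toll-like receptor genes all lie within 2-fold.

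Genes of the study's other immune signals were mostly low. Of 15 checkpoint genes, a part of those the study analysed, 2 were past 2-fold higher and 2 lower. Their differences ran from -1.56 to 1.95 (median 0), and the 9 with a mean of at least 1 had a median of -0.43. Of all genes 8.46% were past 2-fold higher and 10.8% lower, and of those below a mean of 1, 16.9% and 20.3%. Cd40, which receives help from T cells, was at 5.16 in T1DM and 3.59 in T2DM and Lgals9 at 7.30 and 5.97. Of 27 cytokine ligands 4 were higher and 7 lower, with differences from -2.99 to 3.67 (median -0.21). Only 4 of them averaged 5 or more, and 0 of these were past 2-fold. The lower ones included Cxcl10, an interferon-induced chemokine, at 4.35 and 1.70 and Il15, which NK cells need, at 3.81 and 2.05. Of 27 cytokine receptors 1 was higher and 7 lower. The higher one was Il1r2, a decoy receptor of IL-1 (0.92 to 3.39). Lepr was near the low end in both (-0.83 in T1DM and -2.02 in T2DM), and the db mutation alters its splicing, so a gene-level value does not check the genotype. Of 14 transcription factors named by the study 2 were past 2-fold lower, Ciita among them, and Cebpe, a low gene with a log2FC of 1.83, was higher.

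Energy metabolism and innate sensing genes lay mostly within 2-fold. Of 51 nuclear respiratory-chain genes 0 were past 2-fold (median 0.22, 39 above 0), and of 12 mitochondrially encoded genes 0 (median 0.33). The 18 Toll-like receptor pathway genes had a median of 0.09, 22 fatty acid oxidation genes 0.16 and 27 chromatin genes linked to hyperglycaemic memory -0.06, with 0 past 2-fold in each. Of 26 glucose transport and glycolysis genes 3 were higher and 1 lower (8.46% and 10.8% of all genes were), with a median of 0.35. Slc2a3, a glucose transporter, was the lower one (5.89 to 4.61). Of 25 unfolded protein response genes 4 were higher and 1 lower (median 0.39), among them the endoplasmic reticulum proteins Manf (4.55 to 5.63) and Pdia4 (5.90 to 6.96). The median of all 5348 well expressed genes was 0.04.

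The largest positive difference among well expressed genes belonged to a processed pseudogene. Gm13394 (chr2:28933610-28934609) was at 0.89 (T1DM) and 9.14 (T2DM) in the Ly6C-high libraries and at 1.14 and 8.09 in Ly6C-low MCs, and the CT Ly6C-high replicates were at 4.31 and 0.98. Of its 31-base sequences 96.8% also occur in Gapdh, which was at 9.78 and 9.66. Tpm3-rs7 (4.14 to 8.70) shares 78.6% with Tpm3, and Rps2-ps10 (3.00 to 7.22) 84.5% with Rps2-ps13. The values of Gm13370 and Gm10240 were identical in the 8 libraries, and they share all of their 31-base sequences. Among 81 ribosomal protein genes 4 were past 2-fold lower (Rps18, Rpsa, Rpl3 and Rps15a) and 0 higher, with a median of 0.03. The shares of all genes were 10.8% lower and 8.46% higher. Rpsa (31.2%), Rpl3 (37.6%) and Rps18 (27.9%) share sequence with other genes, and their log2FC in Ly6C-low MCs were -1.52 (Rpsa), -1.38 (Rpl3) and -2.74 (Rps18). Reads were quantified with Kallisto, but the values do not show how reads were split between such copies, so these values are uncertain.

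Set against the Ly6C-low MCs over 5238 genes averaging 5 or more in the 4 diabetic libraries, 103 genes were past 2-fold higher in Ly6C-high and 56 in Ly6C-low, and 28 in both (27.2% and 50% of these). Lower were 204 and 88, and 50 in both (24.5% and 56.8%). In the opposite direction past 2-fold were 4 genes. Across genes averaging 5 or more in the 2 Ly6C-high libraries, the differences of the subsets had a Pearson r of 0.52, and of 0.66 at a mean of at least 8, where the points share the 2 mouse pools and the sequencer. Of the 619 well expressed genes past 2-fold higher in the Ly6C-high than the Ly6C-low subset of CT mice, 58 (9.37%) were lower and 40 (6.46%) higher in T2DM. Of the 87 lower in that subset, 15 (17.2%) were lower and 4 (4.6%) higher, and of the other 4642 genes, 107 (2.31%) were lower and 75 (1.62%) higher.

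**Figure D5:**
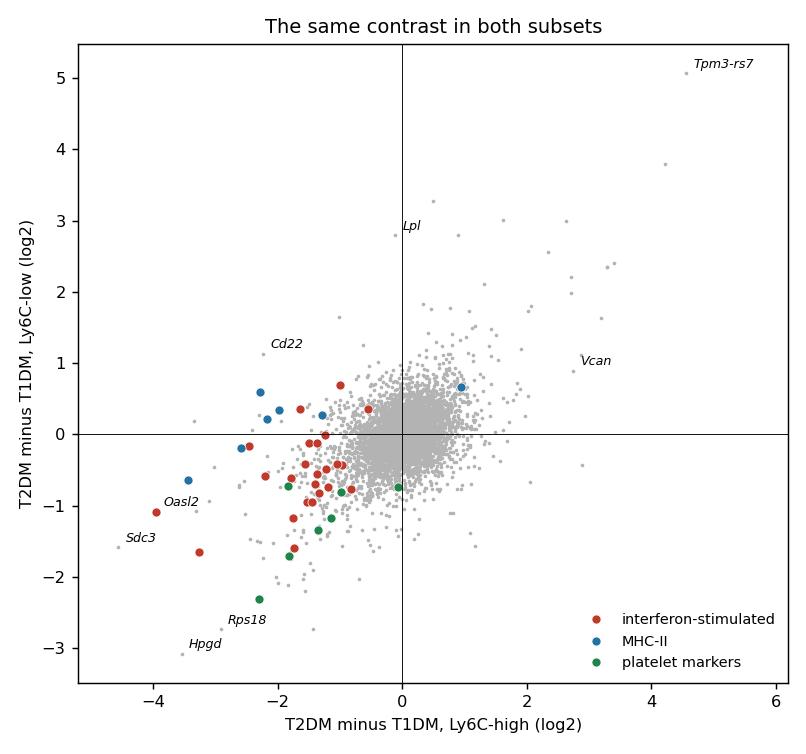
T2DM minus T1DM log2 difference in Ly6C-high (x) against Ly6C-low MCs (y) for 5238 genes averaging 5 or more, with the members of 3 lists among them in colour. The MHC-II genes (blue) spread along x with y near 0, the platelet markers (green) lie below 0 on both axes, and Tpm3-rs7 lies above 4 on both.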

How the data were processed

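Bulk RNA-Seq of sorted blood MCs was used as a table that the authors deposited as log2 normalized expression values. Per the labels, reads were quantified with Kallisto 0.45, and R 3.6.1 with tximport 1.12.3 summed transcripts to genes. The submitters' processing notes name mm10. The annotation, scaling and filter are not given in the sources used here. The study states the same number of raw reads for each sample. The values hold no counts, so the reads per gene and the counting error are unknown. On the linear scale the Ly6C-high libraries total 1056360 (T1DM) and 1090019 (T2DM). Of 16486 entries, 332 had exactly equal values in both, and 16262 symbols were in GENCODE M21 (GRCm38, the assembly of mm10), which gave positions and 31-base sequences.

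log2FC was the T2DM minus the T1DM value, with no test, and a gene past 2-fold had an absolute log2FC above 1. Alternatives were 1 added on the linear scale, filters on low genes, quantile normalization, median centring and a difference larger than that of the CT replicates. Genes named were the 20 largest differences each way among genes averaging 5 or more on the log2 scale, the 10 among those averaging 8 or more, the 10 largest each way between subsets, and members of 60 lists. A few of these genes are not reported here. Glo1, H2-K2, H2-Ea-ps and Tpm3 were added after their values were seen. The members and lists were chosen with earlier results of these data known. The difference code was tested on simulated data. Python 3.11.15, numpy 2.4.6, pandas 2.3.3 and matplotlib 3.10.9 were used.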

Additional observations from a re-analysis of the deposited data

Results flagged for a closer look

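Of the 5238 genes averaging 5 or more in the 4 diabetic libraries, 4 were past 2-fold in opposite directions in the subsets, and the difference between subsets was not tested, with 1 library per group. Cd22, an inhibitory receptor of B cells, had log2FC of -2.24 (Ly6C-high) and 1.13 (Ly6C-low). Itga1, a collagen-binding integrin chain, had -1.02 and 1.65. Mmp19, a matrix metalloproteinase, had 1.16 and -1.56. H2-Q6, a nonclassical MHC-I gene, had log2FC of 1.09 and -1.38. The CT Ly6C-high replicates were at 3.86 and 4.18 for Cd22, 6.58 and 6.41 for Itga1, 5.72 and 6.01 for Mmp19 and 5.24 and 5.01 for H2-Q6, closer to each other than the diabetic Ly6C-high libraries were. The CT Ly6C-low replicates were at 7.79 and 7.61 for Cd22, 3.81 and 2.69 for Itga1 (more than 2-fold apart), 3.78 and 3.45 for Mmp19 and 7.37 and 7.41 for H2-Q6. Under quantile normalization the Ly6C-high log2FC of H2-Q6 was 0.99, within 2-fold. H2-Q6 shares 51.8% of its 31-base sequences with other genes.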

How the results depend on the processing

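The counts of genes past 2-fold depended on how low genes were treated. With 1 added on the linear scale, 721 genes were higher and 910 lower, with a mean of at least 1 over 8 libraries 683 and 1032, and with a mean of at least 5 over the 2 libraries 119 and 180, since fewer genes enter or low values are compressed. Quantile normalization, subtracting the median of the well expressed genes (0.04) and keeping only differences larger than that of the CT replicates left both counts within 1.5 times. The NK-cell median was -1.72 with 1 added on the linear scale. List medians near 0 changed sign in 3 lists. The BCL2 family median of 0.03 was -0.004 under quantile normalization, -0.01 with the median subtracted and -0.009 over members with a mean of at least 1 in the 2 libraries, a filter added after seeing the data. That filter gave 0.19 for chemokine receptors (-0.11 as deposited), and the ribosomal protein median of 0.03 was -0.007 with the median subtracted. The checkpoint and basophil list medians, at 0 as deposited, took either sign. The other list medians and the genes named by the size rule kept their sign under the alternatives run, and of these genes only H2-Q6 came within 2-fold (0.99, quantile normalization). No library could be left out, because each side has 1. No paired analysis was possible because each side has 1 library, so no 2 replicate numbers are shared. Results for 1 gene rest on 1 pool a side, and the CT replicates need not hold the difference between mice.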

Other observations

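Gene groups outside the comparisons above held members past 2-fold in both directions or few members. Of all genes 8.46% were past 2-fold higher and 10.8% lower. Several counts below lie near these shares, and the members named are examples, not results about their lists. Of 27 matrix and protease genes 6 were higher and 4 lower in T2DM Ly6C-high MCs, with the laminin chain Lamc1 at 3.46 in T1DM against 6.05 in T2DM. Of 14 coagulation genes 3 were higher, among them F10, coagulation factor X (6.81 against 7.95). Of 21 NRF2 target genes 3 were higher and 0 lower, namely Txnrd1 and Gsr, the thioredoxin and glutathione reductases (log2FC 1.48 and 1.04), and the low gene Osgin1. Of 23 NF-kB pathway and target genes 5 were lower and 1 higher, with the inhibitor Nfkbia at 6.01 against 4.90. Of 17 clock genes 3 were lower, with the repressor Nr1d1 at 2.83 against 0.33, and 2 higher, with Cry1 at 3.84 against 5.13. The time of day of blood collection is not given in the sources used here. Id2, an inhibitor of helix-loop-helix factors, was at 5.20 against 7.03. Of 22 LXR and lipid handling genes 1 was higher and 2 lower (median -0.12), the higher one being Abca1, the cholesterol exporter, at 4.63 against 5.72.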
